A study of Mus musculus with 4 samples.

Results

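The translation factors that decide where a scanning ribosome stops are described here in mouse testes at day 10, as measured by ribosome profiling. This assay reads the short stretches of mRNA that a translating ribosome shields from nuclease digestion. The group comprised 8 genes taken by name from the deposited table, out of 14984 genes in all. They were Eif5 itself, the eIF1 genes Eif1 and Eif1b, the eIF1A genes Eif1a and Eif1ax, the subunit-joining factor gene Eif5b, and the eIF5-mimic genes Bzw1 and Bzw2. All 8 genes were in the table, and all 8 were among the 12095 genes that passed the filter on low reads. The libraries were 2 Eif5 cKO testis samples, from mice with floxed Eif5 alleles (Eif5 fl/fl) crossed with Stra8-Cre mice, and 2 Control testis samples. The Stra8 promoter drives Cre in male germ cells, so Sertoli, Leydig and other somatic cells of the tissue keep Eif5 by design. The sources used here do not give the alleles of the Control mice. The labels do not tie samples to separate animals, so the p-values rest on a spread between samples that may be technical. In the main fit that spread was largely shared over all genes tested, with 2 residual and 37.0 prior degrees of freedom. It is thus not the spread of each gene alone.

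Start codon selection works as a contest on the small ribosomal subunit. eIF1 and eIF1A hold the complex open while it scans the 5′ end of the mRNA, and eIF1 blocks the response to poor start sites. At a good start codon eIF1 leaves, eIF5 takes up its place and completes hydrolysis of the GTP on eIF2, and eIF5B then joins the large subunit. BZW1 and BZW2 resemble the C-terminal part of eIF5 but lack the part that activates GTP hydrolysis. They compete with eIF5 for eIF2 and eIF3, and in human cells they make start codon choice stricter. In human cells the EIF1 mRNA starts in a poor context and the EIF5 mRNA holds an inhibitory upstream reading frame, so that each factor acts on its own synthesis. The deposited values give a single number for each gene, so footprints on upstream frames, on the deleted exons or on single start codons were not analysed here.

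The libraries held 2296938 and 2782527 footprint reads in Eif5 cKO replicates 1 and 2, and 2934609 and 2225964 in Control replicates 1 and 2. Levels below are the deposited values, that is, reads divided by a scaling factor of each library, called scaled reads. They are not divided by length, so the level of a gene is not compared with that of another. Over all 12095 genes, limma on log2(scaled reads + 1) with Benjamini-Hochberg adjustment called 82 genes (0.678%) at an adjusted p under 0.05. Of these, 73 (0.604% of those tested) fell and 9 (0.0744%) rose in Eif5 cKO. The defining genes of the labelled tissue were present in every library: the summed Sertoli cell markers stood at 59656 to 86940 scaled reads in Eif5 cKO and 43670 to 62024 in Control. No gene of the Sertoli list was at 0. Most of that sum was Clu, at 70687 and 48370.5 scaled reads in Eif5 cKO replicates 1 and 2. In Control replicates 1 and 2 Clu was at 35567.6 and 52646.1, so its groups overlapped. Scaling of libraries on the Sertoli cell markers, used below, divides by this sum and so rests largely on Clu.

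None of the 8 genes passed this threshold in limma, nor in edgeR, DESeq2 or limma-voom on the recovered reads. Bzw1, Eif5 and Eif1b were lower in both Eif5 cKO libraries than in both Control libraries, Eif5b and Eif1 were higher in both, and Eif1ax, Eif1a and Bzw2 overlapped. Groups lay apart in either direction for 5 of the 8 genes, and for 40.8% of all genes tested. For the 3 genes that were lower the background was 20.9%, and for the 2 that were higher it was 20.0%. An unadjusted p under 0.05 was reached by 3 of the 8 genes (Bzw1, Eif5 and Eif1b) and by 10.6% of all genes. Eif5 cKO replicate 2 lay above Eif5 cKO replicate 1 for 6 of the 8 genes (all but Eif1 and Bzw2), against 50.3% of all genes.

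**Figure D1:**
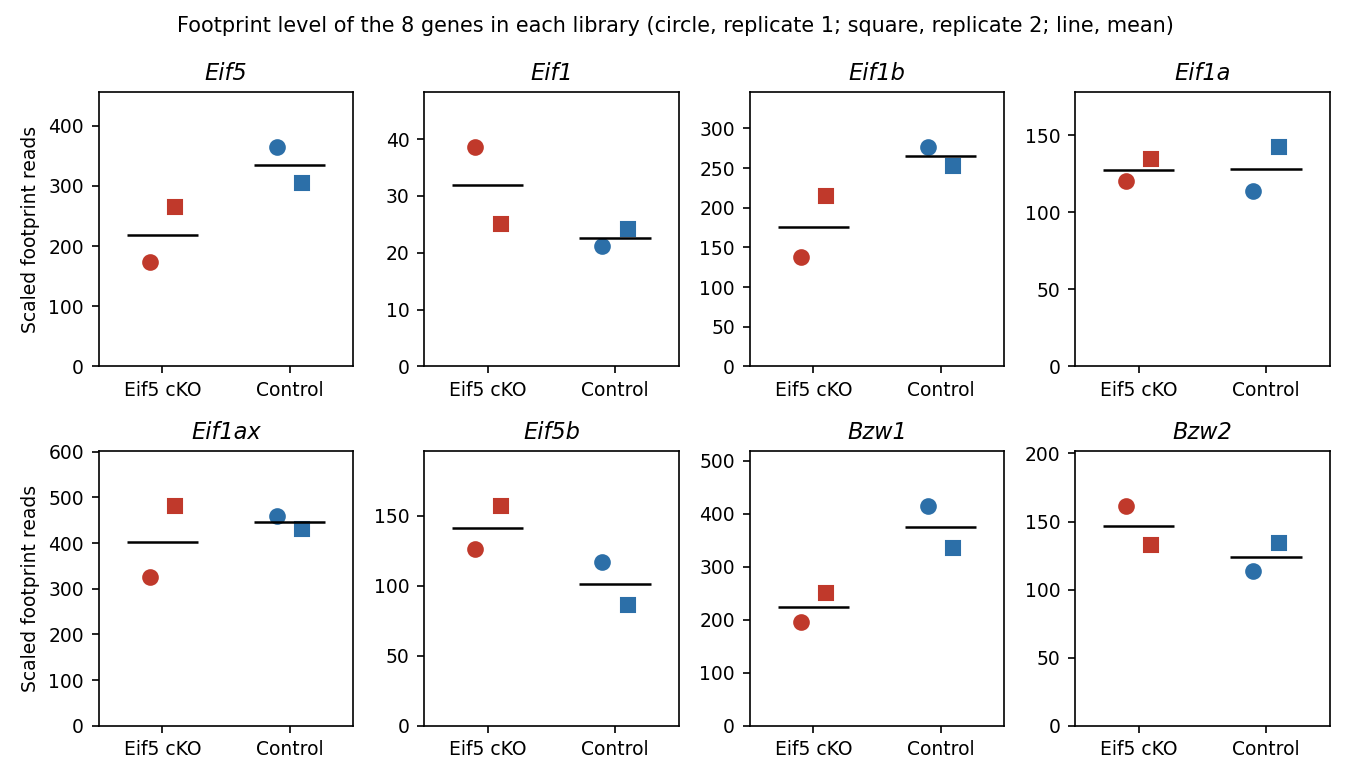
Scaled footprint reads (vertical axes from 0, a scale for each gene) of the 8 genes in the 2 Eif5 cKO libraries (red, left) and the 2 Control libraries (blue, right). Circles are replicate 1, squares replicate 2, and lines the means. Eif5, Eif1b and Bzw1 lie below Control in both Eif5 cKO libraries, whereas Eif1 and Eif5b lie above in the deposited scaling.

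Sequences are shown for the 5 genes whose groups did not overlap, to place them in the genome. Each is the stretch of 100 bases just before the annotated start of transcription, read 5′ to 3′ on the strand of the gene, from RefSeq on build GRCm38.p6. Capitals mark the GC box, searched as GGGCGG on both strands (CCGCCC where it lies on the other strand). The RefSeq promoter table held 7 of the 8 genes. The Eif5 stretch is at chr12:111538001-111538100 and that of Eif1b at chr9:120492506-120492605. The Bzw1 stretch is at chr1:58392798-58392897, that of Eif5b at chr1:37997910-37998009 and that of Eif1 at chr11:100319849-100319948, all on the plus strand.
Eif5: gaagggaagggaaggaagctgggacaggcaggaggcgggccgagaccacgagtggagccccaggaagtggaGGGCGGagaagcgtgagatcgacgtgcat
Eif1b: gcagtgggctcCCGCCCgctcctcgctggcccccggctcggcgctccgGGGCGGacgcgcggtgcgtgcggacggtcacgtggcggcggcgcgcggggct
Bzw1: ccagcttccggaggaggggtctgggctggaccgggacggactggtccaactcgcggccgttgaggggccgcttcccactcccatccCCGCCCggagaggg
Eif5b: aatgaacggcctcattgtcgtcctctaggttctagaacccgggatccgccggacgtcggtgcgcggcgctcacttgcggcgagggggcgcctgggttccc
Eif1: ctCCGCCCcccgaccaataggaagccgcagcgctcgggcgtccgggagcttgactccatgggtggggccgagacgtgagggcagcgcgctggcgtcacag
A GC box was found in 6 of the 7 genes, that is, in all but Eif5b. These 6 included Eif1, which was higher in Eif5 cKO, and Eif1ax and Bzw2, whose groups overlapped. The stretches of the 7 genes were 65% (Eif5) to 85% (Eif1ax) G or C. Of 32851 RefSeq promoter stretches of the same length, 24.7% held at least 1 GC box, a share not matched for base content or expression. A CCAAT box (CCAAT on either strand) was found in Eif1 and Bzw2 and in none of the other 5 genes, and 18.9% of the stretches held one.

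Eif5 was the targeted gene and encodes the activator of GTP hydrolysis on eIF2. It is a protein-coding gene on chromosome 12 (111538101 to 111546753, GRCm38). Eif5 had 173 and 266 scaled reads in Eif5 cKO replicates 1 and 2, against 365 and 304 in Control replicates 1 and 2. Both Eif5 cKO libraries were thus below both Control libraries, but Eif5 cKO replicate 2 lay closer to Control replicate 2 than to Eif5 cKO replicate 1. The mean was 219 ± 65.7 in Eif5 cKO and 334 ± 42.9 in Control (SD, n = 2 each), 34.5% lower in Eif5 cKO. Its log2 fold change of -0.63 (SE 0.25, 95% interval -1.14 to -0.13) had an adjusted p of 0.319 and did not pass.

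Before scaling, Eif5 had 152 reads in Eif5 cKO replicate 1 (95% exact Poisson interval 129 to 178) and 296 in Eif5 cKO replicate 2 (263 to 332). It had 447 reads in Control replicate 1 (407 to 490) and 265 in Control replicate 2 (234 to 299). The libraries differ in depth, so these unscaled counts are not compared between libraries, and the intervals cover counting error only. Without Eif5 cKO replicate 1 the log2 fold change of Eif5 was -0.33 (adjusted p = 0.773), and without Eif5 cKO replicate 2 it was -0.94 (adjusted p = 0.0506). Without Control replicate 1 it was -0.50 (adjusted p = 0.912) and without Control replicate 2 it was -0.77 (adjusted p = 0.608), so that the sign held with any single library left out and the size did not.

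Eif1 encodes the small factor that guards against poor start codons, and Eif1b its paralog. Eif1b (chromosome 9, 120492606 to 120495327) had 137 and 214 scaled reads in Eif5 cKO replicates 1 and 2, against 277 and 253 in Control replicates 1 and 2. Its groups did not overlap, and the Eif5 cKO mean of 176 ± 54.4 was 33.5% below the Control mean of 265 ± 17.1 (SD, n = 2 each). On the log2 scale the difference was -0.62 (SE 0.26, 95% interval -1.15 to -0.09), and it did not pass (adjusted p = 0.354). As with Eif5, its size was smallest without Eif5 cKO replicate 1 (-0.30) and largest without Eif5 cKO replicate 2 (-0.94).

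Eif1 (chromosome 11, 100319949 to 100322099) had the opposite sign on far fewer reads, and was at -0.01 with libraries scaled on the Sertoli cell markers. It had 38.6 and 25.1 scaled reads in Eif5 cKO replicates 1 and 2, against 21.2 and 24.1 in Control replicates 1 and 2. Eif5 cKO replicate 1 was high, and Eif5 cKO replicate 2 was level with the higher Control library to within about 1 scaled read. Its log2 fold change of 0.45 (SE 0.53, 95% interval -0.63 to 1.52) had an adjusted p of 0.825, and without Eif5 cKO replicate 1 it was 0.15. Its counts of 34 and 28 reads in Eif5 cKO and 26 and 21 in Control had exact Poisson intervals of 24 to 48, 19 to 40, 17 to 38 and 13 to 32. RefSeq lists 3 pseudogenes named after Eif1 (Eif1-ps1, Eif1-ps2 and Eif1-ps3), none of which is in the deposited table. How reads shared with such copies were counted is not stated in the sources at hand, and the level of Eif1 is therefore uncertain.

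The eIF1A genes differed less. eIF1A binds the decoding site of the small subunit and supports scanning and start codon recognition. Eif1ax (chromosome X) had 325 and 481 scaled reads in Eif5 cKO replicates 1 and 2, against 460 and 430 in Control replicates 1 and 2. The Eif5 cKO libraries lay on either side of the Control libraries. The difference of -0.17 on the log2 scale (SE 0.24, 95% interval -0.65 to 0.31) had an adjusted p of 0.853, and it changed sign to 0.11 without Eif5 cKO replicate 1. Eif1a (chromosome 18) had 120 and 135 scaled reads in Eif5 cKO replicates 1 and 2, against 113 and 142 in Control replicates 1 and 2. Both Eif5 cKO values of Eif1a lay within the Control range. Its log2 fold change was 0.003 (SE 0.28, 95% interval -0.57 to 0.58; adjusted p = 0.998), an interval that still allows a change of over 0.5 on the log2 scale in either direction.

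Eif5b encodes the GTPase that joins the large ribosomal subunit after the start codon is chosen. Eif5b (chromosome 1, 37998010 to 38055579) had 126 and 157 scaled reads in Eif5 cKO replicates 1 and 2, against 117 and 86.1 in Control replicates 1 and 2. Both Eif5 cKO libraries were above both Control libraries, with Eif5 cKO replicate 1 close to Control replicate 1. The mean was 142 ± 21.9 in Eif5 cKO and 101 ± 21.6 in Control (SD, n = 2 each). Its log2 fold change of 0.49 (SE 0.29, 95% interval -0.11 to 1.08) had an adjusted p of 0.587, and was 0.02 with libraries scaled on the Sertoli cell markers. It ranged from 0.27 to 0.70 with each library left out in turn.

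The eIF5-mimic genes had log2 fold changes of opposite sign, and neither passed; with libraries scaled on the Sertoli cell markers both were negative (Bzw1 -1.21, Bzw2 -0.22). Bzw1 (chromosome 1, 58392898 to 58407354) had 197 and 251 scaled reads in Eif5 cKO replicates 1 and 2, against 415 and 335 in Control replicates 1 and 2. Bzw1 had the smallest p of the 8 genes, with a mean of 224 ± 38.7 in Eif5 cKO and 375 ± 56.1 in Control (SD, n = 2 each), 40.3% lower in Eif5 cKO. Its log2 fold change of -0.74 (SE 0.24, 95% interval -1.23 to -0.25) had an unadjusted p of 0.00395. Its rank by p was 264 of 12095 genes, and the adjusted p of 0.181 did not pass. It stayed between -0.92 and -0.57 with each library left out.

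Bzw2 (chromosome 12, 36091835 to 36156841) had 161 and 133 scaled reads in Eif5 cKO replicates 1 and 2, against 113 and 134 in Control replicates 1 and 2. Eif5 cKO replicate 2 was about level with Control replicate 2, so the groups overlapped. Its log2 fold change of 0.24 (SE 0.28, 95% interval -0.32 to 0.81) had an adjusted p of 0.816. It ranged from 0.10 (without Eif5 cKO replicate 1) to 0.38 with each library left out.

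**Figure D2:**
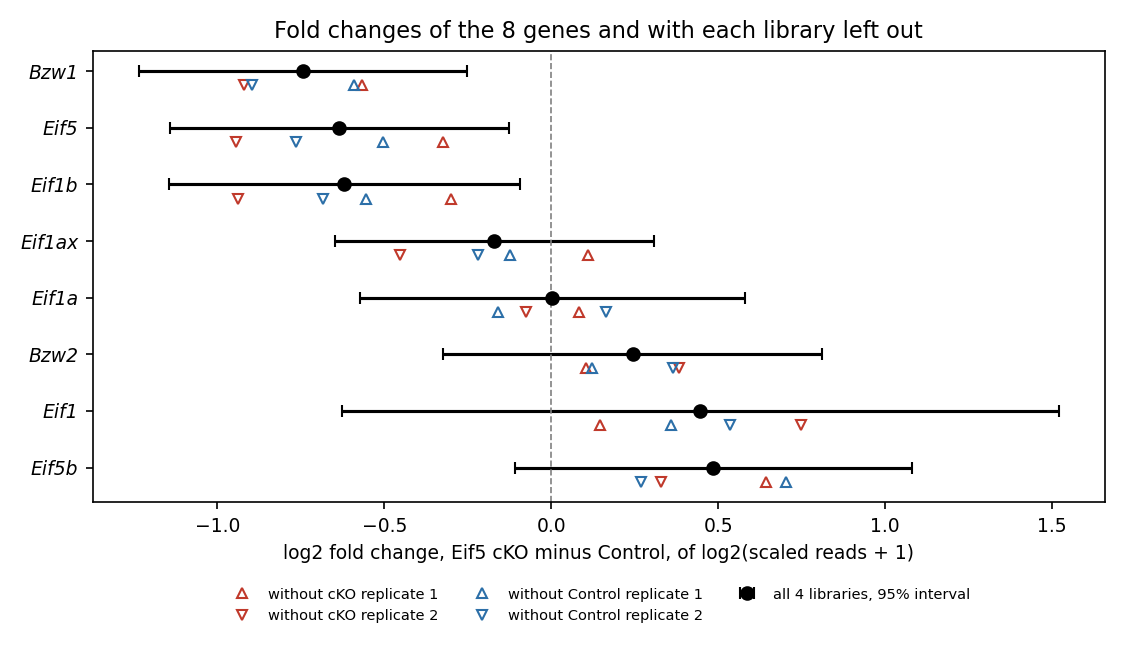
Log2 fold change of each gene (Eif5 cKO minus Control, horizontal axis) with its 95% interval from limma on all 4 libraries (black). Open triangles give the value with the named library left out. Intervals of Bzw1, Eif5 and Eif1b exclude 0 before adjustment, and leaving out Eif5 cKO replicate 1 brings Eif5 to -0.33 and Eif1b to -0.30.

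Ratios of these factors within a library do not depend on how libraries are scaled, and competing factors make such ratios of interest. Of 7 ratios computed, 5 lay apart between groups. Among ratios of Eif5 to every other gene tested, 58.3% lay apart, and no such share was computed for ratios without Eif5. With 2 samples against 2, the exact two-sided permutation test cannot give a p below 0.333, and each of the 5 reached that value, so none can be called. Eif5 over Eif5b was the ratio with the clearest gap. Its log2 ratio was 0.45 and 0.75 in Eif5 cKO replicates 1 and 2, against 1.64 and 1.81 in Control replicates 1 and 2, a difference of -1.12, which makes the ratio 2.17-fold lower in Eif5 cKO.

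Eif5 over Eif1 had log2 ratios of 2.13 and 3.35 in Eif5 cKO replicates 1 and 2, against 4.04 and 3.60 in Control replicates 1 and 2 (difference -1.08). Eif5 over Bzw2 had 0.10 and 0.99 in Eif5 cKO, against 1.68 and 1.17 in Control (difference -0.88). In both ratios Eif5 cKO replicate 2 was near Control replicate 2, and the difference without Eif5 cKO replicate 1 was -0.47 for Eif5 over Eif1 and -0.43 for Eif5 over Bzw2. Without Eif5 cKO replicate 2 the differences were -1.69 and -1.33. The ratio of Eif5 to each other gene tested lay apart in either direction for 58.3% of 12094 genes, and apart and lower in Eif5 cKO for 55.4%. A lower ratio to Eif1, Eif5b and Bzw2 was thus shared with many genes.

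Eif5 over Bzw1 was the exception, with log2 ratios of -0.19 and 0.08 in Eif5 cKO replicates 1 and 2, against -0.18 and -0.14 in Control replicates 1 and 2. The Control values lay between the Eif5 cKO values, and the difference was 0.11 (exact permutation p = 1). Between paralogs, Bzw2 over Bzw1 had log2 ratios of -0.28 and -0.91 in Eif5 cKO, against -1.86 and -1.31 in Control, a difference of 0.99, or 1.98-fold. Eif1b over Eif1 differed by -1.07, which became -0.45 without Eif5 cKO replicate 1 and -1.68 without Eif5 cKO replicate 2. Eif1a over Eif1ax differed by 0.17 with overlapping groups (exact permutation p = 0.667).

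**Figure D3:**
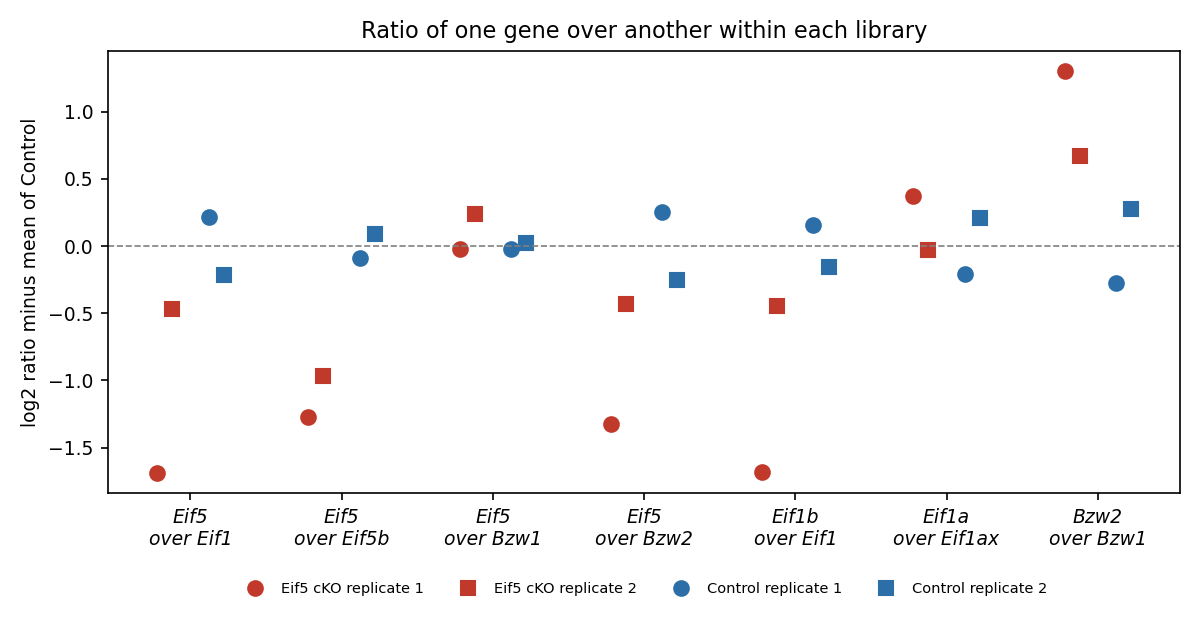
Log2 ratio of a gene over another within each library, minus the mean of that ratio in Control (vertical axis), for the 7 ratios. Red points are the Eif5 cKO libraries and blue points the Control libraries, with circles for replicate 1 and squares for replicate 2. Eif5 over Eif5b shows differences of -1.27 and -0.97 in the Eif5 cKO libraries, whereas Eif5 over Bzw1 lies around 0 in all libraries.

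Eif1b and Bzw1 followed Eif5 across the 4 libraries. Likeness was measured as the root-mean-square difference of log2(scaled reads + 1), each gene centred on its own mean, among 3191 genes with a mean within 2-fold of that of Eif5. Eif1b differed from Eif5 by 0.047 and ranked 3, Bzw1 differed by 0.110 and ranked 23, and Eif1ax differed by 0.240 and ranked 341. The remaining genes of the group had means outside the 2-fold range and differed by 0.413 (Eif1a) to 0.708 (Eif1). The measure uses the same 4 libraries as the fold changes, and with 4 points it is a description only.

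The 5 genes most like Eif5 were Zw10 (0.034), which encodes a kinetochore and vesicle-tethering protein, Morc2a (0.039), a chromatin ATPase gene, Eif1b itself, Tex30 (0.049) and Rnf216 (0.050), a ubiquitin ligase gene. Zw10, the nearest, had 120 and 184 scaled reads in Eif5 cKO replicates 1 and 2, against 241 and 212 in Control replicates 1 and 2. Like Eif5, it was lowest in Eif5 cKO replicate 1 and did not pass (adjusted p = 0.397). The adjusted p of the other genes in this set ran from 0.292 to 0.379.

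Some cell type marker lists differed between the groups in the same libraries, and others differed little. In bulk tissue, fewer cells of a type and less RNA or fewer footprints per cell cannot be told apart. Summed over the 12 meiotic prophase genes, levels were 1076 and 1346 scaled reads in Eif5 cKO, against 3830 and 3602 in Control. All 10 such genes tested had negative log2 fold changes, with a median of -1.75. Their groups lay apart on the lower side for all 10, against 20.9% of all genes. limma called 7 of the 10 lower, against 0.604% of all genes. The median was -1.50 without Control replicate 1 and -1.88 without Control replicate 2, with all 10 still negative. Fewer of them were called in these fits, each of which leaves 1 Control library. The recombination genes Spo11 and Prdm9 were at 0 in Eif5 cKO replicate 1, and Spo11 and Meiob in Eif5 cKO replicate 2. Reads of these genes were few in Control too, at 3 and 7 for Spo11, 14 and 4 for Meiob, and 30 and 17 for Prdm9 in Control replicates 1 and 2. Of 7 differentiating spermatogonia genes tested 6 were negative (median -0.94), and of 7 pan-germ-cell genes all 7 were (median -0.73). limma called 2 lower in each list, against 0.604% of all genes. Groups lay apart on the lower side for 5 and 7 genes, against 20.9% of all genes, and on the higher side for 1 and 0. Without Control replicate 1 the medians were -0.71 and -0.81, again with 6 and 7 negative, but the calls in each list were lost. The 10 undifferentiated spermatogonia genes summed to 830 to 832 scaled reads in Eif5 cKO and 783 to 896 in Control, with 0 of the 8 tested called by limma, edgeR or DESeq2 and 0 at an unadjusted p under 0.05.

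Summed Leydig cell markers lay higher in the deposited scaling. Their sum was 2878 to 3182 in Eif5 cKO and 1786 to 2164 in Control (median log2 fold change 0.71 over 8 genes), and the median was 0.48 over 12 Sertoli and 0.51 over 5 macrophage genes. With libraries scaled on the Sertoli cell markers these medians were 0.24 for Leydig (6 positive, 2 negative), 0.02 for Sertoli and 0.04 for macrophage genes. That scaling divides by the sum of the Sertoli genes themselves, so their median under it is no independent check. In the deposited scaling, the median of the Sertoli genes was 0.31 without Control replicate 1. On all 4 libraries limma called 0 genes in each of these lists, against 0.678% of all genes. An unadjusted p under 0.05 was reached by 6 of 8 Leydig, 6 of 12 Sertoli and 2 of 5 macrophage genes, and by 10.6% of all genes. In the deposited scaling, groups lay apart on the higher side for 6, 7 and 4 of these genes, and on the lower side for 0. Over all genes the higher side held 20.0%. DESeq2 and limma-voom each called 1 Sertoli gene, as did limma with library totals. Over all 12095 genes these fits called 67, 100 and 113. Without Eif5 cKO replicate 2 the medians were 0.59 for Leydig and 0.64 for Sertoli genes. Without Eif5 cKO replicate 1 they were 0.53 and 0.36. Myoid and endothelial medians were -0.20 and 0.04. Relative to its Control mean, Eif5 was at -0.94 on the log2 scale in Eif5 cKO replicate 1 and at -0.33 in Eif5 cKO replicate 2. Its log2 fold change of -0.63 was a smaller gap than the median of the meiotic genes (-1.75). It was close to the median of the pan-germ-cell genes (-0.73), and that of the differentiating spermatogonia genes was -0.94. The part of cell composition in the values of Eif5, Eif1b, Bzw1 and Eif5b was not tested.

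**Figure D4:**
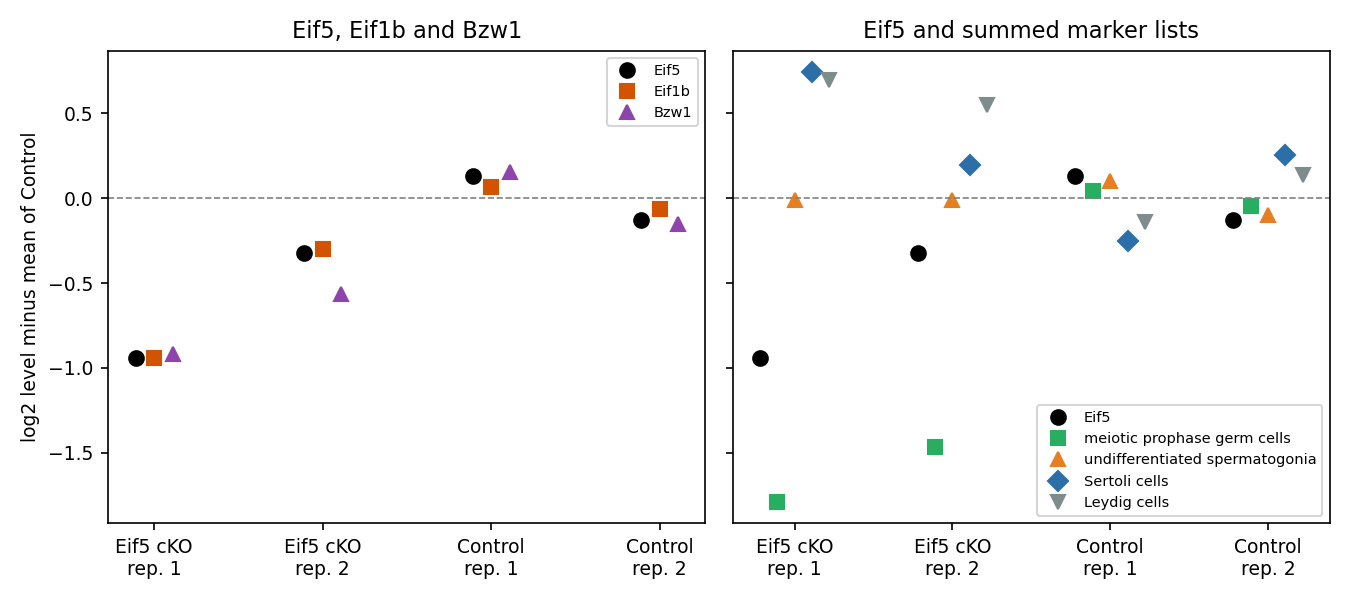
Log2 level minus the mean of Control (vertical axis) in each library for Eif5, Eif1b and Bzw1 (left), and for Eif5 beside the summed scaled reads of 4 marker lists (right). The Eif5 cKO libraries stand left of the Control libraries. The Eif5 points at -0.94 and -0.33 in Eif5 cKO lie between the undifferentiated spermatogonia sums near 0 and the meiotic prophase sums. The differentiating spermatogonia and pan-germ-cell lists are not drawn.

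The rest of the initiation machinery was read from lists by role, 38 genes in all, of which 37 were in the table and 36 were tested. limma called 0 of the 36, against 0.678% of all genes. An unadjusted p under 0.05 in limma was reached by 4 of the 36, and by 10.6% of all genes. edgeR and DESeq2 also called 0. The median log2 fold change was -0.17, with 20 negative and 16 positive, against a median of 0.003 over all genes tested and -0.08 over the 8 start codon selection genes. Groups lay apart for 14 genes on the lower side and 3 on the higher side, that is 38.9% and 8.33% of the 36, beside 20.9% and 20.0% of all genes.

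eIF2 carries the initiator tRNA and is the partner on which eIF5 acts. Among its 4 subunit genes Eif2s3y, the Y-linked gamma subunit gene, had 81.8 and 181 scaled reads in Eif5 cKO replicates 1 and 2, against 242 and 211 in Control replicates 1 and 2 (log2 fold change -0.89, SE 0.29, adjusted p = 0.186). Eif2s3x, its X-linked paralog, had 53.4 and 32.3 in Eif5 cKO, against 34.3 and 4.59 in Control (1.60, SE 0.64, adjusted p = 0.326). Eif2s3x overlapped between groups, with Control replicate 2 far below the other 3 libraries. These paralogs are similar in sequence, and the counting of shared reads is not stated.

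The eIF2B genes, which encode the exchange factor that recharges eIF2 with GTP, all had negative log2 fold changes (5 of 5, median -0.27) and 0 called. Without Eif5 cKO replicate 1 or Control replicate 1, 4 of the 5 were negative, and the median was -0.41 without Control replicate 2. Eif2b2 was at 51.1 and 46.7 scaled reads in Eif5 cKO and 78.3 and 75.8 in Control (-0.65, SE 0.36, adjusted p = 0.552), and Eif2b5 was at -0.28 (SE 0.24, adjusted p = 0.732).

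eIF3, the scaffold that both eIF5 and the eIF5 mimics bind, had a median of -0.22 over 12 tested subunit genes, 7 of them negative. The median was -0.02 (6 negative) without Eif5 cKO replicate 2 and -0.10 (6 negative) without Control replicate 1, and all 12 were negative without Control replicate 2. Eif3e had 116 and 199 scaled reads in Eif5 cKO replicates 1 and 2, against 251 and 304 in Control replicates 1 and 2 (-0.86, SE 0.27, adjusted p = 0.153). Eif3b, a core subunit gene, had 551 and 631 in Eif5 cKO, against 894 and 716 in Control (-0.44, SE 0.23, adjusted p = 0.497). Without Eif5 cKO replicate 2, which leaves 1 Eif5 cKO library, Eif3e was at -1.25 and Eif2s3y at -1.46.

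The eIF4 genes, which bring the mRNA cap and helicase to the ribosome, differed in sign from the other lists: 8 of 9 were positive, with a median of 0.21 that became -0.26 with libraries scaled on the Sertoli cell markers. Without Control replicate 2 the median was 0.06, and 6 to 7 of the 9 were positive with each library left out. The exception was the helicase gene Eif4a1, with 22.7 and 33.2 scaled reads in Eif5 cKO and 39.2 and 81.5 in Control (-1.02, SE 0.46, adjusted p = 0.406). Eif4g3, a scaffold gene, was at 98.8 and 96.9 in Eif5 cKO, against 80.0 and 56.2 in Control (0.54, SE 0.33, adjusted p = 0.598). Of the 6 recycling and alternative initiation genes 5 were negative (median -0.24, and -0.12 without Eif5 cKO replicate 1). Abce1, the ribosome-splitting factor gene, was at -0.48 (SE 0.24, adjusted p = 0.475), and Denr, which acts in reinitiation, at -0.43 (SE 0.22, adjusted p = 0.497). Scaling on the Sertoli cell markers placed the median of all genes at -0.46 and that of the 36 initiation genes at -0.64, while the medians of the other initiation lists stayed negative.

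**Figure D5:**
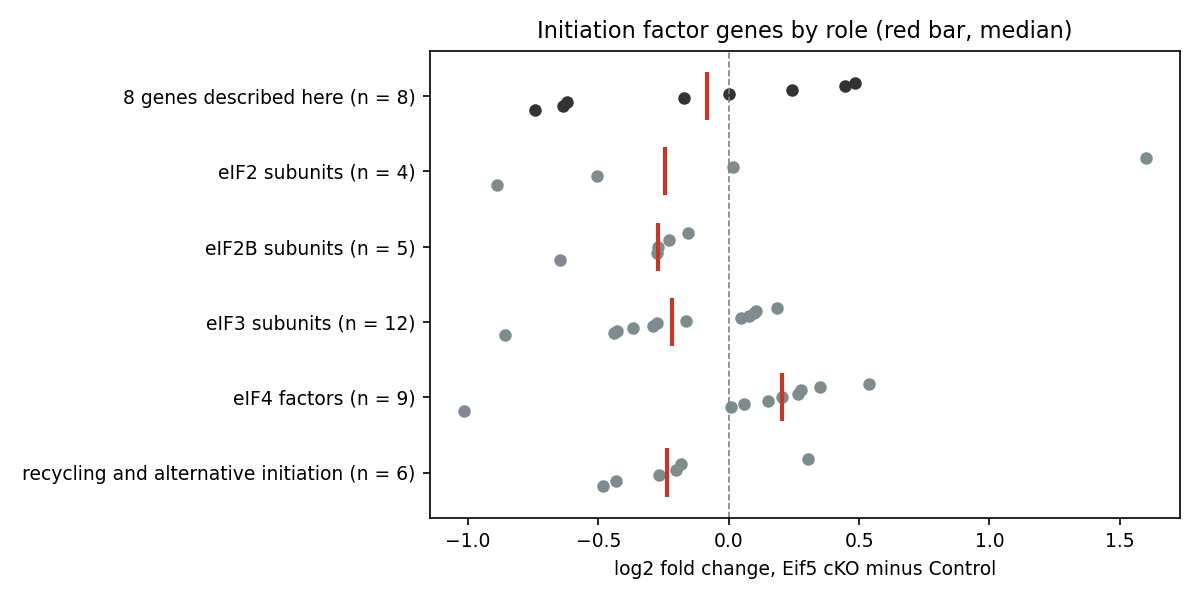
Log2 fold change (Eif5 cKO minus Control, horizontal axis) of each tested gene in the 8-gene group and in 5 lists of other initiation factors. Each point is a gene and each red bar the median of its row. In the deposited scaling, medians run from -0.27 for eIF2B subunits to 0.21 for eIF4 factors, and no point passed the adjusted threshold.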

How the data were processed

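Ribosome footprints were made with a commercial kit, per the labels' protocols. The submitters' processing notes list Bowtie2, STAR, featureCounts and build GRCm38 with no version. Settings for strand and multi-mapping are not stated. The deposited columns are named raw counts but hold a scaled signal, from which whole reads were recovered, because 100% of values in each column were whole multiples of the smallest value above 0 (relative tolerance 1e-06). Groups came from the sample titles. The edgeR filter (filterByExpr, minimum count 10) on the recovered reads left 12095 genes. limma 3.58.1 (R 4.3.3) modelled log2(value + 1) by group, with an intensity trend. This scale understates fold changes of low genes. Tests were two-sided with Benjamini-Hochberg adjustment over all genes, and the spread rested on 2 residual and 37.0 prior degrees of freedom. Alternatives included edgeR 4.0.16 and DESeq2 1.42.0 on the recovered reads, other scalings, pseudocounts and filters, a replicate block, and each library left out.

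Named genes were the 8 of the group, the 2 with the smallest p in each initiation list, and the 5 most like Eif5. The genes, lists and tests were chosen with earlier results of these data known. Translational efficiency was not computed, since RNA libraries are not analysed here.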

Additional observations from a re-analysis of the deposited data

How the results depend on the processing

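None of the 8 genes passed in any of the alternatives run, which gave log2 fold changes of -1.10 to -0.60 for Eif5, -1.21 to -0.73 for Bzw1, -1.09 to -0.58 for Eif1b and 0.02 to 0.50 for Eif5b with all libraries in. Scaling on the Sertoli list shifted the median of all genes by -0.46, gave 51 calls (1 higher) in place of 82, and turned Eif1 to -0.0067, Eif1a to -0.46 and Bzw2 to -0.22. Eif1a, at 0.003 in limma, was also negative with edgeR (-0.0051), library totals (-0.042) and TMM factors (-0.0071). With each library left out, Eif1a ranged from -0.16 to 0.17, negative without Eif5 cKO replicate 2 (-0.077) and without Control replicate 1, and Eif1ax ranged from -0.45 to 0.11, positive without Eif5 cKO replicate 1. In the same fits, calls numbered 10 to 346 over all genes, 9 to 244 for lower genes, 1 to 102 for higher genes and 0 to 2 among the initiation lists. The calls among the initiation lists were Eif3e and Eif2s3y, without Eif5 cKO replicate 2. That fit has 1 Eif5 cKO library and also gave the most calls over all genes. On the recovered reads edgeR called 92 genes and DESeq2 67. Calls of higher genes were 19 in limma-voom, 14 with library totals and 14 with the replicate block. The difference of Eif5 over Bzw1 ranged from -0.024 (without Eif5 cKO replicate 2) to 0.24. That of Eif1a over Eif1ax ranged from -0.037 (without Control replicate 1) to 0.38, and was -0.029 without Eif5 cKO replicate 1. The causes were not tested. The labels do not say whether replicate numbers pair the samples. Deviations from the group mean correlated at -0.047 over genes between libraries of the same number, which with 2 libraries in each group cannot settle pairing. With the replicate block in limma the total was 100 calls and Eif5 stayed at -0.63 (adjusted p = 0.405), and no call on the 8 genes changed. Depth limits Eif1 most, at 21 to 34 reads in each library.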
